A study of Homo sapiens with 6 samples.

Results

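The p53 pathway was described in KGN cells through 40 genes, the listed regulators of p53 and its direct target genes, out of 20030 gene names in the deposited count table. The genes were chosen by name, and all 40 were found and passed the filter on low counts. KGN is a human line from a granulosa cell tumour of the ovary. One group was transfected with siRNA that targets the long noncoding RNA SNHG5 (siSNHG5, 3 libraries), and the other with a negative control siRNA (siNC, 3 libraries), on the same wild-type line. RNA was taken 48 h after transfection in both groups, and mRNA-seq libraries were made from 1.0 µg of it. The sequence and number of the siRNAs are not given in the labels, and the level of SNHG5 was not analysed here, which leaves the knockdown unchecked in these data. The libraries show 1 tumour line at 1 time.

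p53 is a transcription factor that is held at a low level by the ubiquitin ligase MDM2, which is itself a p53 target and so closes a feedback loop. After DNA damage, nucleolar stress or oncogene activity p53 accumulates and switches on genes that halt the cell cycle, repair DNA, reshape metabolism or lead to cell death. The best known arrest gene is CDKN1A, whose product p21 inhibits cyclin-dependent kinases and, through the DREAM repressor complex, lowers genes of replication and mitosis. In ovarian follicles p53 takes part in the arrest and atresia of granulosa cells.

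With siSNHG5, 28 of the 40 genes fell, 2 rose and 10 did not pass at a Benjamini-Hochberg adjusted p of 0.05 (edgeR, quasi-likelihood). Of the 40, 70% fell and 5% rose; of all 12508 genes tested, 19.9% fell and 20.3% rose (40.2% together). The median log2 fold change (siSNHG5 over siNC) was -0.50 for the 40 genes and -0.0052 for all genes tested. A fall of at least 1 on the log2 scale was called in 7 of the 40, RRAD, GDF15, TP53INP1, GADD45A, TRIM22, CYFIP2 and ZMAT3, where 1.5% of all genes tested had one. A called fall of at least 0.5 was present in 20 of the 40, against 5.86% of all genes tested. The genes that rose were PERP and TGFA. The 40 genes were listed with earlier results of these libraries known, so these counts carry no test of the list. In bulk RNA, fewer cells with a transcript and less of it per cell cannot be told apart.

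CPM, the counts divided by a library's TMM-scaled size, did not overlap in 28 genes that were lower and 3 that were higher with siSNHG5, where 24.8% and 25% of all genes tested were so (49.8% in either direction). The summed CPM of the 28 genes that fell was 1332, 1399 and 1367 in siSNHG5 replicates 1, 2 and 3, and 2101, 2154 and 2236 in siNC replicates 1, 2 and 3. Each gene had 105 to 15948 counts in a library. The coefficient of variation between replicates had a median over the 40 genes of 7.29% with siSNHG5 and 4.25% with siNC, and was at most 17.8%. With upper quartile in place of TMM scaling 39.9% of all calls were higher, against 50.5%, and 30 of the 40 genes fell and 2 rose.

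**Figure D1:**
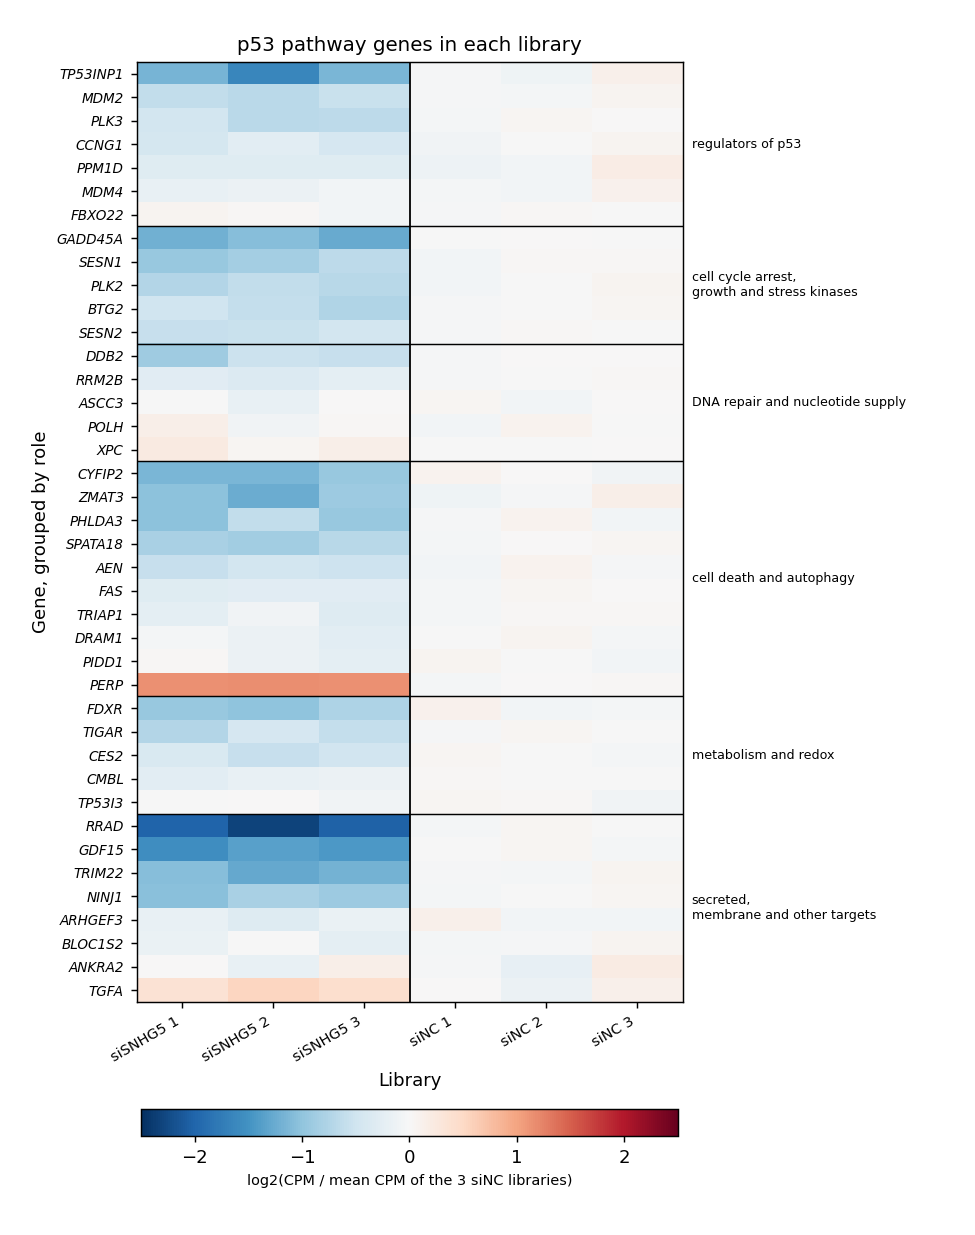
Log2 ratio of the CPM of each of the 40 p53 pathway genes (rows, grouped by role) in each of the 6 libraries (columns) to the mean CPM of the 3 siNC libraries; blue is lower and red is higher. RRAD is the darkest blue row in all 3 siSNHG5 libraries, and PERP is the darkest red row.

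Total counts were 18232634 to 22088913 per library. Over the counts of all genes, siSNHG5 replicate 2 differed from the other siSNHG5 libraries by 8.61 and 8.81 chi-square units per degree of freedom, which were 1.91 between those libraries and 3.10 to 4.41 between siNC libraries. Among the siSNHG5 libraries this replicate was highest for 14 of the 40 genes, lowest for 17 and between the others for 9. Without it, 28 of the 40 genes fell and 3 rose. Of 16 granulosa markers 12 had a mean of at least 1 CPM, FOXL2, NR5A1, GATA4 and AMH among them, while AMHR2, INHA, CYP19A1 and WT1 were below it. The summed granulosa markers, most of it KRT18 and FST, had 3203 to 3496 CPM with siSNHG5 and 4662 to 4728 CPM with siNC. Of the granulosa markers that were tested, FST (log2 fold change -1.42), FSHR (-1.15), NR5A2 (-0.93), KRT18 (-0.43) and GATA4 (-0.37) fell and INHBB rose (1.10), while FOXL2 (0.17), STAR (0.21), NR5A1 (0.10), AMH (0.09), INHBA (-0.03), CDH2 (-0.04) and WT1 (-0.72) did not pass. Theca markers (CYP17A1, INSL3, LHCGR) were at 0 in all libraries. Immune markers summed to 27.3 to 29 CPM with siSNHG5 and 22.2 to 26.2 CPM with siNC, nearly all of it CD68, with CD3E at 0, and fibroblast markers to 25.4 to 29 CPM with siSNHG5 and 29.4 to 31.9 CPM with siNC, nearly all of it PDGFRA, with LUM at 0. Endothelial markers had 1.41 to 2.26 CPM with siSNHG5 and 1.70 to 2.10 CPM with siNC (CDH5 at 0), surface epithelium markers 0.767 to 1.34 CPM with siSNHG5 and 1.17 to 1.65 CPM with siNC, and oocyte markers 0.201 to 0.226 CPM with siSNHG5 and 0.195 to 0.345 CPM with siNC (BMP15 and DDX4 at 0). The part of these marker levels in the results on the p53 genes was not tested.

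Of the 7 genes that act back on p53, 5 fell and 2 did not pass, with a median log2 fold change of -0.37. Beside this and the later role groups, 19.9% of all genes tested fell and 20.3% rose. MDM2 (chromosome 12, 68808176 to 68850686, plus strand), the ubiquitin ligase that marks p53 for degradation, had 121, 116 and 126 CPM in siSNHG5 replicates 1, 2 and 3, against 182, 179 and 196 CPM in siNC replicates 1, 2 and 3. All 3 siSNHG5 libraries were below all 3 siNC libraries, and MDM2 was 1.53-fold lower (log2 fold change -0.62 ± 0.05 SE; edgeR adjusted p = 5.65e-08). MDM4, a relative of MDM2 that binds and inhibits p53, had 38.2, 39.2 and 41.3 CPM with siSNHG5 and 42.1, 41.3 and 46.9 CPM with siNC. These groups touched, since siSNHG5 replicate 3 exceeded siNC replicate 2, and MDM4 did not pass (log2 fold change -0.13, 95% interval -0.28 to 0.01; edgeR adjusted p = 0.124). It passed as lower with upper quartile scaling (-0.17) and with the GC trend removed (-0.19).

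PPM1D encodes the phosphatase WIP1, which removes activating phosphates from p53 and its kinases. It had 37.1, 36.7 and 36.8 CPM with siSNHG5, against 41.8, 43.5 and 51.5 CPM with siNC, and fell by 0.30 on the log2 scale (edgeR adjusted p = 0.0031). siNC replicate 3 was the highest; without that library the log2 fold change was -0.21 (adjusted p = 0.026). TP53INP1, a nuclear protein that helps p53 choose death genes, had the largest fall of the 7, with 7.76, 5.63 and 7.88 CPM with siSNHG5 and 17.1, 16.1 and 19.0 CPM with siNC (log2 fold change -1.29 ± 0.11 SE). PLK3, a stress kinase reported to phosphorylate p53, had 18.5, 16.0 and 16.1 CPM with siSNHG5, against 24.5, 26.2 and 25.5 CPM with siNC, with no overlap (log2 fold change -0.59). CCNG1, which encodes cyclin G1, a partner of the phosphatase PP2A that acts on MDM2, averaged 109.7 ± 7.81 CPM with siSNHG5 and 142 ± 7.62 CPM with siNC (SD, n = 3 each; log2 fold change -0.37). PPM1D, TP53INP1, PLK3 and CCNG1 thus fell along with MDM2, and in each the siSNHG5 libraries lay below the siNC libraries. FBXO22, an F-box protein of a ubiquitin ligase, averaged 39.7 ± 1.81 CPM with siSNHG5 and 39.5 ± 0.915 CPM with siNC and did not pass (95% interval of the log2 fold change -0.13 to 0.14).

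All 5 genes listed for arrest and growth control fell, with log2 fold changes of -1.17 to -0.53 and no overlap of CPM in any. Of all genes tested, 19.9% fell and 24.8% were lower with no overlap of CPM. GADD45A (chromosome 1, 67685061 to 67688338, plus strand), a small stress protein that binds p21, PCNA and stress kinases, had 57.8, 63.9 and 55.6 CPM with siSNHG5 and 132, 135 and 133 CPM with siNC. It was 2.25-fold lower (log2 fold change -1.17 ± 0.06 SE; edgeR adjusted p = 2.29e-11). The highest siSNHG5 library, replicate 2, was still below every siNC library. SESN1, a sestrin that restrains the growth kinase mTORC1, had 17.7, 19.0 and 21.9 CPM with siSNHG5, against 32.5, 35.2 and 35.2 CPM with siNC (log2 fold change -0.81). Its paralogue SESN2, a leucine sensor that is also a target of the stress factor ATF4, averaged 31.1 ± 1.42 CPM with siSNHG5 and 44.8 ± 0.823 CPM with siNC (SD, n = 3 each; log2 fold change -0.53). Both sestrins were thus lower in all siSNHG5 libraries.

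PLK2, a polo-like kinase of the centrosome cycle, had the highest counts of the 40 genes, with 475, 517 and 489 CPM with siSNHG5 and 759, 785 and 837 CPM with siNC. It was 1.61-fold lower (log2 fold change -0.69 ± 0.05 SE; edgeR adjusted p = 5.69e-09). BTG2, an antiproliferative protein that recruits the mRNA deadenylase CCR4-NOT, averaged 21.8 ± 1.95 CPM with siSNHG5 and 33.3 ± 0.870 CPM with siNC (log2 fold change -0.61).

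**Figure D2:**
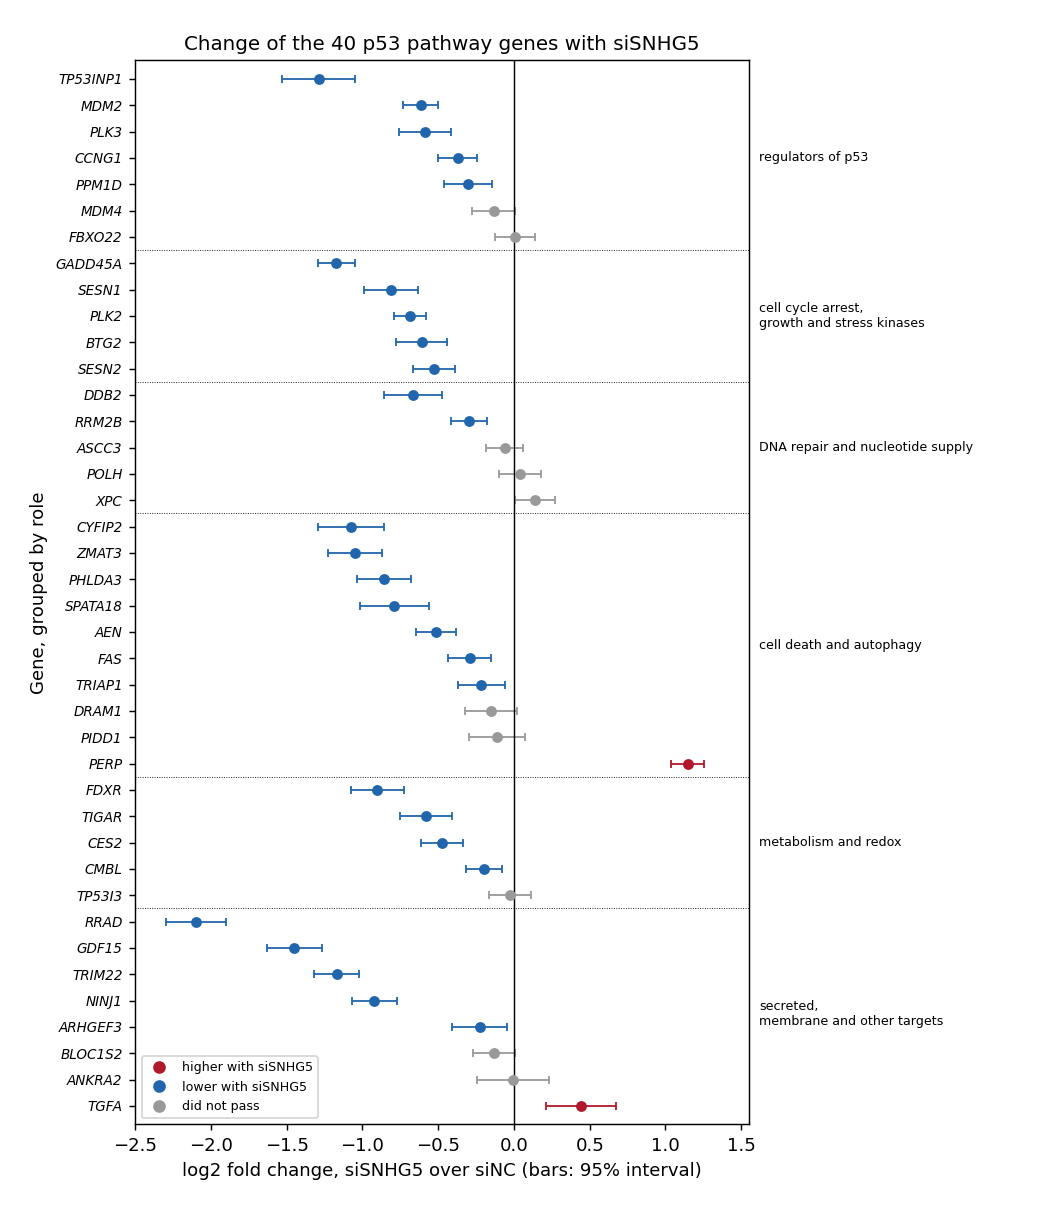
Log2 fold change (siSNHG5 over siNC, horizontal axis) of the 40 p53 pathway genes, grouped by role, with 95% intervals from the edgeR fit on 3 libraries a group. The 28 genes that fell are blue, PERP and TGFA, which rose, are red, and the 10 that did not pass are grey.

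DNA repair and nucleotide genes were divided: 2 of 5 fell and 3 did not pass. DDB2, the damage-binding subunit that recognises ultraviolet lesions in chromatin, had 12.7, 16.1 and 15.9 CPM with siSNHG5 and 23.1, 23.8 and 23.9 CPM with siNC. The siNC libraries lay close together and above all siSNHG5 libraries, of which replicate 1 was the lowest (log2 fold change -0.67 ± 0.09 SE; edgeR adjusted p = 1.35e-05). RRM2B, the p53-inducible ribonucleotide reductase subunit, had 51.5, 49.6 and 52.9 CPM with siSNHG5, against 61.9, 62.5 and 64.7 CPM with siNC (log2 fold change -0.30).

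XPC, which starts global-genome nucleotide excision repair together with DDB2, had 47.5, 42.2 and 44.8 CPM with siSNHG5 and 40.6, 40.7 and 40.9 CPM with siNC. All siSNHG5 libraries were above all siNC libraries, but the log2 fold change of 0.14 did not pass (95% interval 0.01 to 0.27; edgeR adjusted p = 0.0873). XPC passed as higher in 3 of the 16 alternatives. These were both fits on the FPKM and the fit without siSNHG5 replicate 2 (0.19, edgeR adjusted p = 0.0163). XPC shares 318 exonic bases with LSM3 on the opposite strand, which averaged 64.0 CPM with siSNHG5 and 56.8 CPM with siNC (log2 fold change 0.17, adjusted p = 0.0337). The use of strand in the counting is not given in the sources used here, so reads of such a pair cannot be told apart. POLH, the translesion DNA polymerase eta, averaged 68.4 ± 5.64 CPM with siSNHG5 and 66.5 ± 3.57 CPM with siNC, and ASCC3, a helicase of the ASCC complex, averaged 160.1 ± 12.4 CPM with siSNHG5 and 167 ± 6.03 CPM with siNC. The 95% intervals of their log2 fold changes were -0.10 to 0.18 for POLH and -0.18 to 0.06 for ASCC3.

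Of 10 genes of cell death and autophagy, 7 fell, 1 rose and 2 did not pass, with a median log2 fold change of -0.40. CYFIP2, a subunit of the actin-regulating WAVE complex that is also a p53 target, had 6.14, 6.08 and 7.0 CPM with siSNHG5 and 14.3, 13.6 and 12.6 CPM with siNC (log2 fold change -1.08 ± 0.10 SE; edgeR adjusted p = 1.51e-07). ZMAT3, a zinc finger protein that binds RNA and alters splicing, had 24.6, 21.1 and 26.5 CPM with siSNHG5 and 46.2, 48.6 and 54.9 CPM with siNC, a 2.07-fold difference (edgeR adjusted p = 1.59e-08). In both genes the highest siSNHG5 library was well below the lowest siNC library.

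PHLDA3, a pleckstrin-homology protein that inhibits the survival kinase AKT, averaged 31.5 ± 4.86 CPM with siSNHG5 and 57.0 ± 3.50 CPM with siNC (SD, n = 3 each; log2 fold change -0.86, and -0.99 without siSNHG5 replicate 2, its highest siSNHG5 library). SPATA18, which encodes the mitochondrial quality-control protein Mieap, averaged 5.62 ± 0.376 CPM with siSNHG5 and 9.71 ± 0.316 CPM with siNC (log2 fold change -0.79). AEN, an apoptosis-enhancing nuclease, averaged 37.5 ± 1.53 CPM with siSNHG5 and 53.5 ± 3.05 CPM with siNC (log2 fold change -0.51). All 3 genes fell, and the next ones fell by less.

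FAS, the death receptor of the TNF receptor family, averaged 30.1 ± 0.154 CPM with siSNHG5 and 36.8 ± 1.18 CPM with siNC (log2 fold change -0.29; edgeR adjusted p = 0.00191); it shares 380 exonic bases with ACTA2 on the opposite strand. TRIAP1, a small protein that limits apoptosis by acting on mitochondrial lipid transfer, averaged 30.6 ± 2.68 CPM with siSNHG5 and 35.5 ± 1.18 CPM with siNC (log2 fold change -0.21; edgeR adjusted p = 0.0292). The call of TRIAP1 ended with DESeq2 and without siNC replicate 2 or 3 or siSNHG5 replicate 1 or 3. DRAM1, a lysosomal membrane protein of autophagy, had a 95% interval of the log2 fold change of -0.32 to 0.02, and PIDD1, the scaffold of the PIDDosome that activates caspase-2, one of -0.30 to 0.07. Neither passed, and DRAM1 passed as lower in 1 of the 16 alternatives, with the GC trend removed (-0.21). PIDD1 shares 107 exonic bases with RPLP2 on the opposite strand.

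PERP (chromosome 6, 138088505 to 138107511, minus strand), a tetraspan membrane protein of desmosomes that p53 and its relative p63 switch on, rose with siSNHG5, while 7 other death genes fell. It had 161, 162 and 159 CPM in siSNHG5 replicates 1, 2 and 3, against 70.4, 73.3 and 74.3 CPM in siNC replicates 1, 2 and 3. The groups were far apart, and the siSNHG5 libraries differed little among themselves. PERP was 2.21-fold higher (log2 fold change 1.15 ± 0.05 SE; edgeR adjusted p = 7.87e-12), and its log2 fold change stayed between 1.03 and 1.16 over the 16 alternatives. Called rises of at least 1 on the log2 scale made up 0.472% of all genes tested, and PERP was number 36 by log2 fold change. TGFA, a ligand of the EGF receptor, also rose, with 9.11, 10.3 and 9.42 CPM with siSNHG5 and 7.13, 6.35 and 7.70 CPM with siNC (log2 fold change 0.44 ± 0.11 SE; edgeR adjusted p = 0.00349). Its groups did not overlap, and it was called in all 16 alternatives at 0.27 to 0.51.

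**Figure D3:**
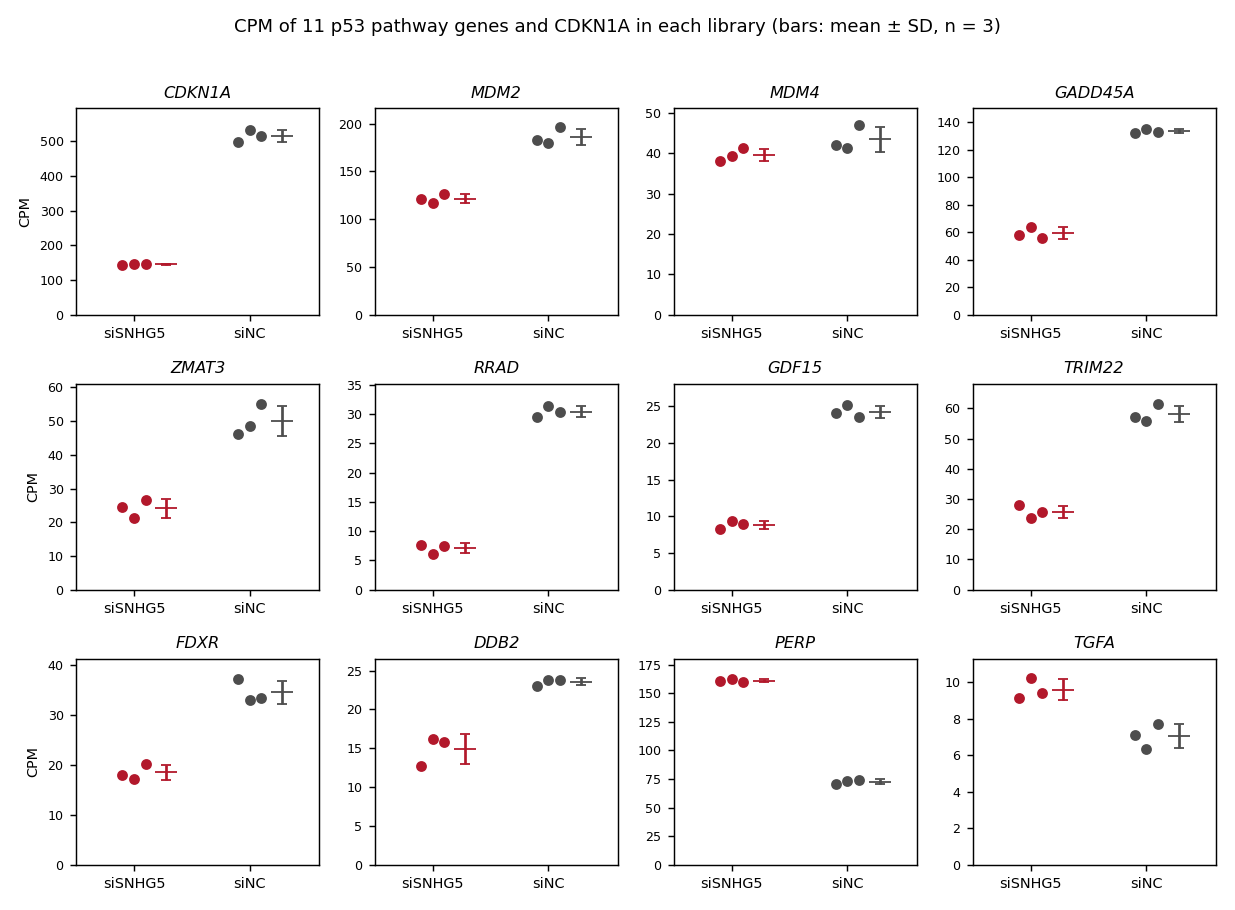
CPM (vertical axes, from 0) of 11 p53 pathway genes and CDKN1A in the 3 siSNHG5 libraries (red) and the 3 siNC libraries (grey), with the mean and SD beside the points. The siSNHG5 libraries lie below the siNC libraries for CDKN1A, MDM2, GADD45A, ZMAT3, RRAD, GDF15, TRIM22, FDXR and DDB2, above them for PERP and TGFA, and reach into them for MDM4.

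Of 5 genes of metabolism and redox control, 4 fell and 1 did not pass. FDXR, the mitochondrial ferredoxin reductase that passes electrons to mitochondrial cytochromes P450 and iron-sulfur cluster assembly, had 18.0, 17.2 and 20.2 CPM with siSNHG5 and 37.1, 33.0 and 33.3 CPM with siNC. It was 1.87-fold lower (log2 fold change -0.90 ± 0.08 SE; edgeR adjusted p = 1e-07). TIGAR, a fructose bisphosphatase that diverts glucose from glycolysis, had 22.9, 28.7 and 25.1 CPM with siSNHG5, against 37.4, 39.3 and 37.9 CPM with siNC (log2 fold change -0.58). The groups did not overlap in either gene, and siSNHG5 replicate 2 was the highest of its group for TIGAR. CES2, a carboxylesterase, had 36.9, 32.1 and 34.6 CPM with siSNHG5 and 49.9, 47.7 and 46.7 CPM with siNC (log2 fold change -0.48), and CMBL, another hydrolase, averaged 52.4 ± 1.95 CPM with siSNHG5 and 60.1 ± 0.806 CPM with siNC (log2 fold change -0.20). CMBL lost its call without siSNHG5 replicate 1 (-0.17, adjusted p = 0.067). TP53I3, a quinone oxidoreductase known as PIG3, averaged 40.2 ± 1.37 CPM with siSNHG5 and 40.9 ± 2.08 CPM with siNC and did not pass; its log2 fold change had a 95% interval of -0.16 to 0.11.

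Secreted, membrane and other targets held the 2 largest falls of the 40 genes: 5 of 8 fell, 1 rose (TGFA) and 2 did not pass. RRAD (chromosome 16, 66921679 to 66925644, minus strand), a small GTPase that inhibits calcium channels and glucose uptake, had 7.58, 6.14 and 7.52 CPM with siSNHG5 and 29.5, 31.4 and 30.3 CPM with siNC. It was 4.29-fold lower (log2 fold change -2.10 ± 0.09 SE; edgeR adjusted p = 5.3e-12), number 9 of the 12508 genes from the lowest log2 fold change. GDF15, a secreted stress cytokine of the TGF-beta family, had 8.30, 9.40 and 8.91 CPM with siSNHG5 and 24, 25.2 and 23.5 CPM with siNC. Its fall was 2.73-fold (log2 fold change -1.45 ± 0.09 SE; edgeR adjusted p = 2.65e-10). In both genes each siSNHG5 library was below each siNC library, and siSNHG5 replicate 2 was the lowest for RRAD and the highest for GDF15 within its group.

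TRIM22, an antiviral ubiquitin ligase that is induced by interferon as well as by p53, had 27.9, 23.8 and 25.6 CPM with siSNHG5, against 57.1, 56.0 and 61.3 CPM with siNC (log2 fold change -1.17 ± 0.07 SE; edgeR adjusted p = 2.84e-10). NINJ1, a cell surface protein that ruptures the plasma membrane of dying cells, averaged 27.6 ± 2.33 CPM with siSNHG5 and 52.3 ± 1.67 CPM with siNC (log2 fold change -0.92). ARHGEF3 had the highest adjusted p of the genes that fell, at 16.7 ± 0.952 CPM with siSNHG5 and 19.5 ± 1.51 CPM with siNC (log2 fold change -0.23; edgeR adjusted p = 0.0442). Its call ended in 8 of the 16 alternatives, among them each fit without siSNHG5 replicate 1 or 2 or siNC replicate 1 or 3. BLOC1S2, a subunit of lysosome-positioning complexes, and ANKRA2, an ankyrin repeat protein, did not pass, with 95% intervals of the log2 fold change of -0.27 to 0.00 for BLOC1S2 and -0.24 to 0.23 for ANKRA2. BLOC1S2 passed as lower without siSNHG5 replicate 2 (-0.19), with upper quartile scaling and with the GC trend removed, and ANKRA2 shares 244 exonic bases with UTP15 on the opposite strand, which had a log2 fold change of -0.28.

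Levels were compared between genes by the deposited FPKM, which scale for gene length. PLK2 was the highest of the 40 genes, at 109.8 ± 4.74 FPKM with siSNHG5 and 178 ± 7.01 FPKM with siNC (SD, n = 3 each), and GADD45A was next, at 41.5 ± 3.17 FPKM with siSNHG5 and 91.1 ± 1.59 FPKM with siNC. CCNG1 followed, at 35.9 ± 1.5 FPKM with siSNHG5 and 49.3 ± 0.632 FPKM with siNC. The lowest levels with siNC were those of CYFIP2, at 0.613 ± 0.0643 FPKM with siSNHG5 and 1.23 ± 0.0156 FPKM with siNC, and of TGFA. In the siNC order, 20 of 39 neighbouring pairs overlapped in range, so much of the order between neighbours is within the spread of 3 libraries. RRAD was number 25 of the 40 with siSNHG5 and number 8 with siNC, and PERP number 4 with siSNHG5 and number 11 with siNC. By FPKM, MDM2 stood at 12.4 ± 0.739 with siSNHG5 and 20.1 ± 0.294 with siNC, above MDM4 at 3.30 ± 0.171 with siSNHG5 and 3.74 ± 0.156 with siNC.

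The 40 genes lie on 15 chromosomes (GRCh38, GENCODE v29), and RRAD and CES2 are the one pair within 1000 kb. These neighbours on chromosome 16 are 8.80 kb apart, with CES2 at 66934444 to 66945096 on the plus strand and RRAD on the minus strand, and both fell. In the annotation, 11 of the 40 genes share exonic bases with another gene of the count table. The longest overlap, 1917 bases between FBXO22 and NRG4, involves a partner at 0.199 CPM with siSNHG5 and 0.190 CPM with siNC. MDM2 shares 133 bases with the gene of carboxypeptidase M on the opposite strand, which averaged 3.88 CPM with siSNHG5 and 3.30 CPM with siNC. The median GC content of the transcripts was 49.3% for the 40 genes and 50.4% for all genes tested.

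The core promoters were searched for the p53 consensus, since most of the 40 genes moved together. RefSeq promoters (GRCh38.p14, 250 bases before to 50 after the start site) were matched for 31 of the 40 genes; GADD45A, TP53INP1, RRM2B, PHLDA3, RRAD, TRIM22, FBXO22, CMBL and ASCC3 were not matched. A full site was taken as 2 copies of the 10-base p53 half-site consensus, on either strand, with 0 to 13 bases between them, at most 2 mismatches in all and the C and G of each core intact. It was found in 2 of 31 members (6.45%), AEN and FDXR, in 2.34% of 9938 promoters of tested genes and in 2.94% of all 27305 promoters. A half-site with 0 mismatches was found in 3 of 31 (9.68%), AEN, FDXR and PLK2, in 5.33% of promoters of tested genes and in 6.54% of all promoters. In many p53 targets, CDKN1A and MDM2 among them, the known sites lie outside this window, in introns or farther upstream. The promoters with a full match are shown whole, with the half-sites in capitals, 5′ to 3′ on the strand of the gene; the first is chr15:88621090-88621389 (plus strand) and the second chr17:74872945-74873244 (minus strand).
AEN: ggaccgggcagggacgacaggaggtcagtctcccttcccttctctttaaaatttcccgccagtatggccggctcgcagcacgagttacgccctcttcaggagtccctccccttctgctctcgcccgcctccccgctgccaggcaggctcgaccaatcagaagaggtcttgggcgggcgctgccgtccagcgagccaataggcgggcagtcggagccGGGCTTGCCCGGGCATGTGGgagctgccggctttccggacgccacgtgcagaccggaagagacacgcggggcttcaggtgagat
FDXR: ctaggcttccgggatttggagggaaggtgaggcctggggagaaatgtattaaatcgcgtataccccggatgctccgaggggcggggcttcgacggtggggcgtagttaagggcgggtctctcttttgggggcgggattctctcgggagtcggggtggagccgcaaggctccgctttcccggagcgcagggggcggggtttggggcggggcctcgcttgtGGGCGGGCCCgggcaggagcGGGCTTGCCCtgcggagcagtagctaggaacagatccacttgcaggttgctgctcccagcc
The AEN site has 2 mismatches and its half-sites adjoin, from -34 to -15 relative to the start site. The FDXR site has 2 mismatches and 10 bases between its half-sites, from -31 to -2. The half-site of PLK2, at -132, is at chr5:58460209-58460218 (minus strand) and is shown with 10 flanking bases on each side.
PLK2: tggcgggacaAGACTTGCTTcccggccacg
All 3 genes fell, with log2 fold changes of -0.51 for AEN, -0.90 for FDXR and -0.69 for PLK2. Of all 40 genes, matched or not, 28 (70%) fell. Among other direct p53 targets, a full site was found in 4 of 63 promoters (6.35%). ABHD4 fell (log2 fold change -0.36), DCP1B (-0.12) and FAM13C (-0.25) did not pass, and SYTL1 was not tested for change. A link between a match and the change was not tested. Positions count from the RefSeq start site, and the matched stretches of AEN, FDXR and PLK2 lie within their GENCODE v29 spans. A match is a description of the letters in this window.

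Other direct p53 targets, 74 genes of which 64 were tested, gave 27 lower (42.2%), 9 higher (14.1%) and 28 not passing, beside 19.9% and 20.3% of all genes tested. Their median log2 fold change was -0.19. CDKN1A had 143, 146 and 146 CPM with siSNHG5 and 499, 532 and 514 CPM with siNC (log2 fold change -1.83 ± 0.05 SE; edgeR adjusted p = 2.99e-15), with the siSNHG5 libraries close together and far below the siNC libraries. PRDM1, a transcriptional repressor, had a log2 fold change of -0.93 and TRAF4, an adaptor of the TNF receptor-associated family, of -0.71. FAM210B, a mitochondrial protein, rose from this list, with 14.2 ± 1.11 CPM with siSNHG5 and 7.97 ± 0.331 CPM with siNC (log2 fold change 0.83). Among the death genes, BAX and BBC3 (PUMA), members of the BCL2 family that promote death through mitochondria, fell with log2 fold changes of -0.51 for BAX and -0.63 for BBC3, and the death receptor gene TNFRSF10B fell with one of -0.62. PMAIP1 (NOXA), another BCL2 family member, rose by 0.21 on the log2 scale, with 65.6 ± 1.36 CPM with siSNHG5 and 56.6 ± 2.52 CPM with siNC; it did not pass with the FPKM.

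Of 32 tested genes of the p53 family, its kinases, cofactors and ligases, 9 fell (28.1%), 4 rose (12.5%) and 19 did not pass, beside 19.9% lower and 20.3% higher of all genes tested. Their median log2 fold change was -0.05. SETD7, a lysine methyltransferase for which p53 is one of several substrates, rose to 291 ± 20.9 CPM with siSNHG5, against 128 ± 4.58 CPM with siNC (log2 fold change 1.18). The log2 fold change was 0.40 for the checkpoint kinase gene CHEK1 and 0.30 for the damage kinase gene ATM, whose call ended in 7 of the 16 alternatives, those without siSNHG5 replicate 1 or siNC replicate 2 or 3 included. DAXX, a histone chaperone that binds MDM2, fell (log2 fold change -0.38). The count of genes that fell in this list was 3 to 8 with 1 library left out, and 4 without siNC replicate 1, 3 without siNC replicate 2 and 5 without siSNHG5 replicate 3.

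Genes that the DREAM complex lowers after p53 activation numbered 30 tested: 19 (63.3%) rose, 4 (13.3%) fell and 7 did not pass, beside 20.3% higher and 19.9% lower of all genes tested. Their median log2 fold change was 0.19. Among those that rose, log2 fold changes were 0.87 for BIRC5, which encodes survivin, 0.80 for the transcription factor gene E2F1, 0.51 for the replication helicase subunit gene MCM3 and 0.41 for MYBL2, a transcription factor of the cell cycle. Those that fell were CDC20, PLK1, AURKA and CCNB1, genes of mitosis, with log2 fold changes of -0.40 (CDC20) to -0.14 (CCNB1, called in 9 of the 16 alternatives). Other genes of mitosis in the list rose, among them BUB1B (0.35), PRC1 (0.35) and CCNB2 (0.28). Without siSNHG5 replicate 3, 2 of the list fell.

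**Figure D4:**
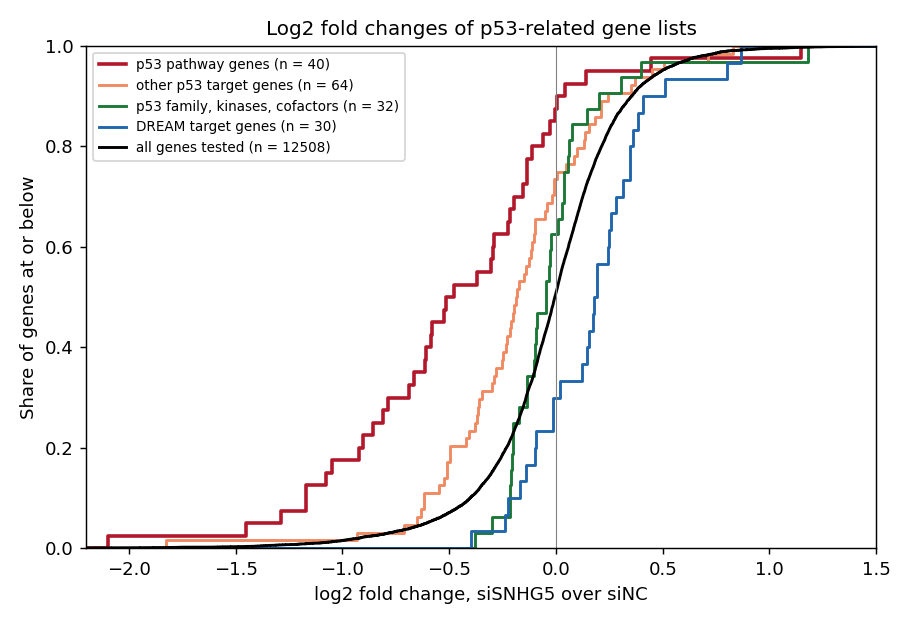
Cumulative share of genes (vertical axis) at or below each log2 fold change (siSNHG5 over siNC, horizontal axis) for the 40 p53 pathway genes, 64 other p53 targets, 32 genes of the p53 family and its partners, 30 DREAM targets and all 12508 genes tested. The curve of the 40 genes lies left of that of all genes, with its median at -0.50, and that of the DREAM targets to the right, with its median at 0.19.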

How the data were processed

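mRNA-seq of 6 KGN libraries was used. Reads were trimmed with Trimmomatic and the genome build was GRCh38, per the submitters' processing notes; versions, aligner, counting program and annotation are not given in the sources used here. Whole, unnormalised counts by gene name made up 1 deposited table, and the deposited FPKM table held values scaled by the authors to gene length and library size. Both held 0 columns of other samples. In the counts, 27 names read as calendar dates, with 0.257% of all counts; they stayed in the tests and are not named.

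Counts were scaled by TMM and tested with edgeR 4.0.16 (R 4.3.3; quasi-likelihood test, 2-sided, siSNHG5 minus siNC) on 12508 genes that passed filterByExpr, with Benjamini-Hochberg adjustment over all of them and a threshold of 0.05; SE and 95% intervals come from that fit. A count of 3 was 0.135 to 0.165 CPM. Alternatives used DESeq2 1.42.0, limma 3.58.1 on log2(FPKM + 1) and log2(FPKM + 0.1), other scalings and filters, GC and length trends of GENCODE v29 transcripts removed per library, a replicate block, and each library left out. The labels do not say whether replicates were separate cultures, so p measures only the spread between these libraries. Plots used matplotlib 3.10.9 (Python 3.11.15).

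The 40 genes, the other lists and the role groups were chosen with earlier results of these data known. CPM per library were given by rule for MDM2, MDM4 and PPM1D, the 3 passing genes of largest absolute log2 fold change in each role group and those that moved against the majority. Outside the 40, the rule took CDKN1A and the 4 largest passing changes per list with at least 1 CPM. The values per library of XPC, and BAX, BBC3, TNFRSF10B, PMAIP1, CDC20, PLK1, AURKA, CCNB1 and the overlapping genes, were added after values were seen.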

Additional observations from a re-analysis of the deposited data

How the results depend on the processing

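Over the 16 alternatives, 595 of 640 values of single p53 pathway genes kept their direction and their side of the threshold, 14 lost the call and 9 gained one. Of the 28 genes that fell, 25 were called lower in every alternative, all but TRIAP1, CMBL and ARHGEF3, and PERP and TGFA were called higher in every alternative. The count that fell was 25 to 28 with 1 library left out. The median log2 fold change of the 40 genes was -0.45 with FPKM + 0.1, -0.41 with FPKM + 1, -0.40 with the GC trend removed, -0.54 with upper quartile scaling and -0.51 to -0.47 with 1 library left out; GC content and log2 fold change were related at a Spearman coefficient of -0.22 over 12348 genes, which are not independent. In the list of the p53 family and its partners, 5 fell with either FPKM setting and 3 to 8 with 1 library left out, against 9; among DREAM targets 7 fell with the GC trend removed and with upper quartile scaling and 2 to 4 with 1 library left out, against 4. The direction reversed in genes that did not pass, with log2 fold changes of TP53I3 0.0428 (FPKM + 0.1), 0.0396 (FPKM + 1), 0.011 (GC trend removed), -0.0655 to 0.00283 (1 library left out), of POLH -0.000518 (upper quartile scaling), -0.0209 to 0.102 (1 library left out), of FBXO22 -0.111 (FPKM + 0.1), -0.098 (FPKM + 1), -0.00433 (GC trend removed), -0.00144 (length trend removed), -0.0342 (upper quartile scaling), -0.0207 to 0.043 (1 library left out), of ASCC3 -0.0987 to 0.00534 (1 library left out), of PIDD1 4.53e-05 (FPKM + 0.1), 0.00141 (FPKM + 1), of ANKRA2 0.0121 (FPKM + 0.1), 0.00844 (FPKM + 1), 0.00212 (no filter on low counts), -0.0964 to 0.0999 (1 library left out). The cause was not tested. The labels do not say whether same-numbered libraries were paired. Their deviations from the group means correlated at 0.05, 0.13 and 0.03 for replicates 1, 2 and 3. Those of differently numbered libraries correlated at -0.12 to 0.08. With the replicate block 2850 genes rose and 2864 fell, against 2538 and 2488. The 40 genes kept the same 28 and 2 counts and a median of -0.50. The 40 genes had 105 counts or more in each library, and the SE of the log2 fold change was 0.11 for SPATA18, TP53INP1 and TGFA, which had few counts, and 0.05 for PLK2, which had the most.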
